A study of Mus musculus with 63 samples.

Results

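Newborn mouse hearts that carried human mitofusin 2 with the substitutions T111A and S442A (Mfn2AA) were compared with newborn hearts that carried the unmodified human protein (Mfn2wt). The rule took every column of the count table whose title began with P1_Mfn2AA or P1_Mfn2wt, which gave 3 and 4 libraries, 7 of the 63 libraries in the series. All were polyadenylated RNA, sequenced without strand information from FVB/N mice at P1, the first postnatal day. The labels name the tissue as whole heart, while the extraction text of the same samples speaks of ventricular apexes. Both groups therefore overexpressed a human Mfn2, and the 2 controls made in the same library batch were hearts of the tet-off line (5 libraries) and of nontransgenic mice (6 libraries). The promoter of the transgenes, and whether Mfn2wt hearts also carried the tet-off driver, are not given in the sources used here. Titles end in a number and a suffix, as in Mfn2AA_10586-3. The Mfn2AA hearts had 2 such numbers, both shared with tet-off hearts, and the Mfn2wt hearts had 1, shared with 1 nontransgenic heart. What the number stands for is not stated, and the labels do not say that each library is a separate animal, so p-values measure only the spread between these libraries.

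Mitofusin 2 is a GTPase of the outer mitochondrial membrane that tethers and fuses mitochondria. On damaged mitochondria the kinase PINK1 phosphorylates it, and the phosphorylated form binds Parkin, a ubiquitin ligase that marks the organelle for removal by mitophagy. The 2 alanine substitutions of Mfn2AA replace residues that PINK1 phosphorylates. Around birth the mouse heart turns from glucose and lactate towards fatty acids, and the series title places Parkin-dependent mitophagy in this maturation of cardiac mitochondria.

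The transgene was read first, to see whether libraries labelled Mfn2AA or Mfn2wt expressed a human Mfn2. It was listed under the unmodified human sequence for all libraries, so its level cannot show which of them carried the substitutions. Its FPKM, a read count scaled to transcript length and library depth, was 1878, 1959 and 2438 in the 3 Mfn2AA hearts. In the Mfn2wt hearts it was 494, 264, 305 and 291. All Mfn2AA hearts lay above all Mfn2wt hearts, by 2.66 on the log2(FPKM + 1) scale or 6.32-fold (exact two-sided permutation p = 0.0286, the smallest that 3 libraries against 4 can give). The groups thus differed in transgene level as well as in protein sequence, and these cannot be told apart here. The 11 control libraries were listed between 1.79 and 155 FPKM. The mouse gene Mfn2 itself was at 851 ± 80 CPM (read counts scaled to a common library size; SD, n = 3) in Mfn2AA and 793.2 ± 65 CPM (SD, n = 4) in Mfn2wt hearts, a log2 difference of 0.10 ± 0.12 (SE) with overlapping groups. Park2, which encodes Parkin, was at 4.35 ± 0.37 CPM against 3.44 ± 0.793 CPM, and Pink1 at 178.9 ± 12.6 CPM against 154.8 ± 20.8 CPM, and neither passed the test (edgeR adjusted p = 0.651 and 0.507).

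The 7 libraries held 8821906 to 14390869 counted reads. Ventricular markers were abundant in all of them, with summed levels of 94710 to 102300 CPM in Mfn2AA and 89520 to 111000 CPM in Mfn2wt hearts. Atrial markers were not even: their sum was 7762 and 11840 CPM in Mfn2wt_10546-1 and Mfn2wt_10546-3, 3026 and 2215 CPM in the other Mfn2wt hearts, and 2091 to 4755 CPM in Mfn2AA hearts. Fibroblast markers summed to 6240 and 9110 CPM in Mfn2wt_10546-1 and Mfn2wt_10546-3 and to 4135 and 4059 CPM in the other Mfn2wt hearts. The Mfn2AA hearts had 3977 to 7628 CPM of them. Endocardial, epicardial and macrophage sums were also higher in Mfn2wt_10546-1 and Mfn2wt_10546-3 than in the other Mfn2wt hearts. Mfn2wt_10546-1 also stood apart in fast skeletal muscle genes, with Tnnt3 at 49.1 CPM and Tnni2 at 31.3 CPM against at most 6.25 and 6.91 CPM in the other 6 libraries. Its Xist level was low and its Ddx3y level high, as in Mfn2AA_10619-1, while the other 5 libraries had high Xist, the transcript of the inactive X chromosome. No 2 replicate libraries agreed within counting noise (chi-square of 7.8 to 39.6 per degree of freedom), so none looked like 1 library deposited again; this does not show that they came from separate animals. In bulk tissue, fewer cells of a type and less RNA per cell cannot be told apart.

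**Figure D1:**
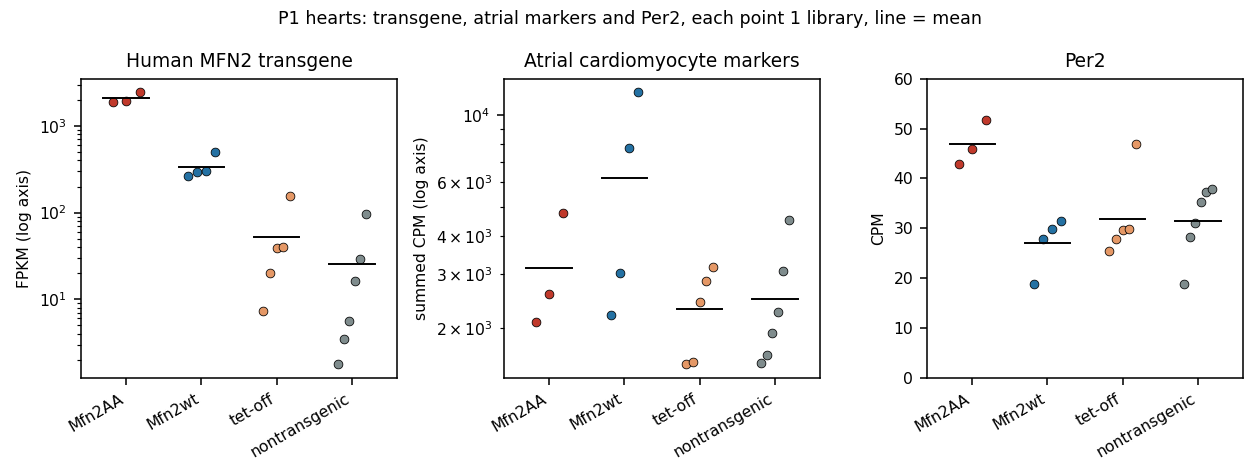
Transgene level (FPKM, log axis), summed level of the atrial markers (CPM, log axis) and Per2 (CPM) in the 18 P1 libraries by genotype; each point is 1 library and the line is the group mean. The 3 Mfn2AA hearts sit above all Mfn2wt hearts for the transgene and for Per2 (1 tet-off heart, at 46.9 CPM, is as high for Per2), while the highest atrial sums, 7762 and 11840 CPM, are both Mfn2wt hearts.

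Across 13653 genes tested, 17 differed between Mfn2AA and Mfn2wt hearts at an edgeR adjusted p under 0.05, which is 0.125% of the genes. Of these, 9 were higher and 8 lower in Mfn2AA. The higher genes were Olfr541, Endod1, Fgf1, Dnahc8, Stbd1, Map7, Hip1r, Pcp4l1 and Rabgap1l. The lower genes were Macrod2, BC026585, AW551984, Ndufaf5, Ramp1, S100a11, Itm2a and Hnrnpc. For each of the 17 the 3 Mfn2AA libraries lay wholly outside the range of the 4 Mfn2wt libraries. Such separation was itself common, at 6.44% of all genes in the higher and 5.6% in the lower direction, and so was an unadjusted p under 0.05 (5.22% higher, 5.28% lower). The median log2 fold change over all genes was -0.00183. Of the 17, only Macrod2, Endod1 and Olfr541 were more than 8-fold apart, and they were also the 3 genes that stayed called without any 1 of the 7 libraries. The count of 17 fell to 3 without Mfn2wt_10546-1, to 3 without Mfn2AA_10586-7, and to between 4 and 7 without Mfn2AA_10586-3, Mfn2wt_10546-3, Mfn2wt_10546-6 or Mfn2wt_10546-9, while it was 14, of which 9 were shared, without Mfn2AA_10619-1. With DESeq2 it was 63, among them all 17. Each of the other 14 genes missed the threshold in 7 to 18 of the alternatives tried, which include leaving out each library.

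**Figure D2:**
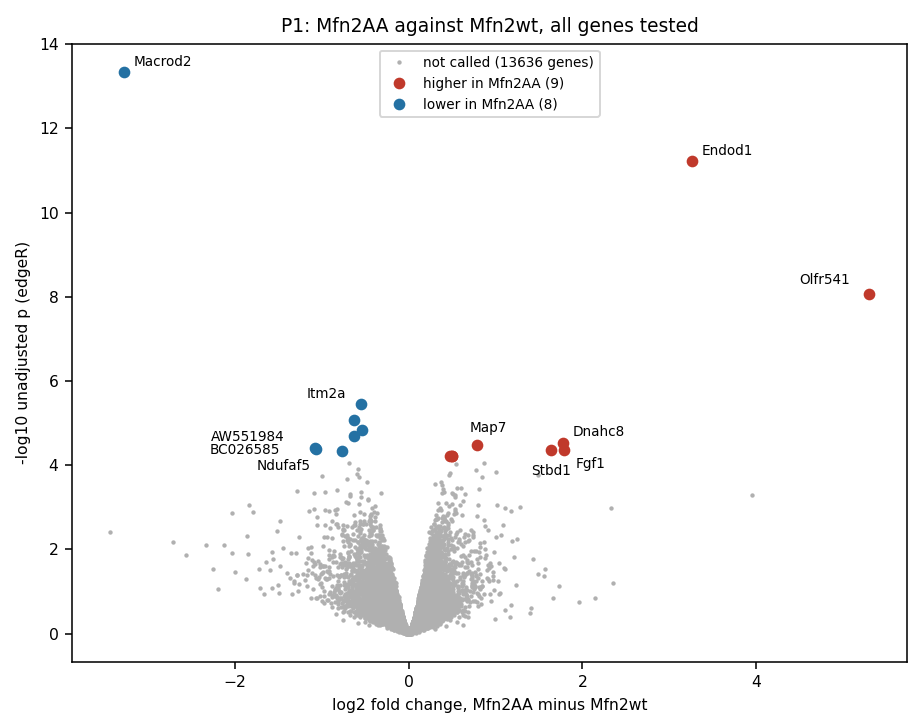
Log2 fold change, Mfn2AA minus Mfn2wt, against -log10 of the unadjusted edgeR p for the 13653 genes tested at P1. Macrod2, Endod1 and Olfr541 stand apart from the other 14 called genes, which adjoin the cloud of genes that were not called.

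Macrod2 was the gene with the smallest p. It encodes a macrodomain enzyme that removes ADP-ribose from proteins and spans chr2:140395430-142390050 on the plus strand (GRCm38, the mm10 build). It was at 3.33, 3.65 and 2.64 CPM in the Mfn2AA hearts and at 25.7, 29.6, 36.1 and 34.3 CPM in the Mfn2wt hearts. The controls were as low, with 3.70 ± 0.586 CPM (SD, n = 5) in tet-off and 4.29 ± 0.973 CPM (SD, n = 6) in nontransgenic hearts, so the Mfn2wt group was the one that stood apart. The log2 difference between Mfn2AA and Mfn2wt was -3.28 ± 0.19 (SE; edgeR adjusted p = 6.29e-10), or 9.71-fold. Among the alternatives tried it stayed called in all 19 that gave a value, between -3.46 and -2.59. It was also the only gene called when the tet-off to nontransgenic difference was subtracted (0.00732% of genes), at -3.03 ± 0.25 (SE; edgeR adjusted p = 7.73e-07).

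Ndufaf5, an assembly factor of respiratory complex I, starts 224.8 kb before Macrod2 on the same strand, at chr2:140170646-140205252. Its level was 11.1, 12.1 and 14.7 CPM in Mfn2AA and 20.2, 19.3, 20.02 and 26.3 CPM in Mfn2wt hearts. The control means lay between, at 15.6 ± 2.04 CPM (SD, n = 5) in tet-off and 14.9 ± 2.26 CPM (SD, n = 6) in nontransgenic hearts. The difference of -0.77 ± 0.15 (SE) was called at an edgeR adjusted p of 0.0436, and was lost in 14 of 20 alternatives. Esf1, a nucleolar protein gene transcribed away from Ndufaf5, was at -0.35 ± 0.13 (SE) and did not pass (edgeR adjusted p = 0.35), with the same sign. In the 1 Mb on either side of Macrod2, 5 genes were tested, and Ndufaf5 and Esf1 were those with an unadjusted p under 0.05.

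The 2 start-site stretches of this chromosome 2 window are shown because the gene with the smallest p and the only called mitochondrial assembly factor lie in it. They come from RefSeq on GRCm38.p6, plus strand, 5′ to 3′. The first is the 250 bases before the start of Macrod2 (chr2:140395180-140395429), with its CCAAT box in capitals. The letters CCAAT, on either strand, occur in 33.8% of the 32851 start windows of that length, taken singly. They occur in 5 of the 13 called genes that have a window. There any window of the gene counted, so these shares differ in measure. The second is the 87 bases between the divergent starts of Esf1 and Ndufaf5 (chr2:140170559-140170645), in which no CCAAT box was found and nothing is in capitals.
Macrod2: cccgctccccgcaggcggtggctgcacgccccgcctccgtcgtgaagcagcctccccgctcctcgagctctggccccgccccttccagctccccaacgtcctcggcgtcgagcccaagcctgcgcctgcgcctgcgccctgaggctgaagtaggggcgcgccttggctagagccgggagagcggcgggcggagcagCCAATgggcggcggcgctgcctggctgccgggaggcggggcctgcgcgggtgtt
Ndufaf5: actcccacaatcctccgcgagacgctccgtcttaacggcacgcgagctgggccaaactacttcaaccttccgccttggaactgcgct

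Endod1, which encodes an endonuclease-domain protein, lies at chr9:14353990-14381242 on the minus strand. It was at 114, 148 and 238 CPM in Mfn2AA hearts and at 21.4, 13.5, 16.7 and 17.2 CPM in Mfn2wt hearts. The difference was 3.26 ± 0.24 on the log2 scale (SE; edgeR adjusted p = 4.11e-08), or 9.61-fold. Tet-off hearts, at 121.2 ± 14.4 CPM (SD, n = 5), resembled Mfn2AA, and nontransgenic hearts, at 13.9 ± 4.71 CPM (SD, n = 6), resembled Mfn2wt. The tet-off to nontransgenic difference, which shares no library with the Mfn2AA to Mfn2wt comparison, was 3.14 ± 0.20 (SE; edgeR adjusted p = 5.07e-09). With that difference subtracted, Endod1 was at 0.13 ± 0.31 (SE; edgeR adjusted p = 0.965), the only alternative in which its call was lost. Sesn3, a stress-inducible sestrin that starts 104.9 kb away from Endod1, had the same order of groups at a smaller size, with 18.1 ± 1.05 CPM in Mfn2AA and 13.04 ± 0.404 CPM in Mfn2wt hearts (log2 difference 0.47; edgeR adjusted p = 0.0861, not called).

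Olfr541, an odorant receptor gene on chr7:140704253-140705191, was measured in the Mfn2AA libraries and was near 0 in the others. It had 147, 150 and 142 reads in the 3 Mfn2AA hearts and 13, 1, 0 and 0 reads in the 4 Mfn2wt hearts. Means were 12.7 ± 2.68 CPM (SD, n = 3) and 0.246 ± 0.431 CPM (SD, n = 4), and the controls were as low, with 13 reads in all 5 tet-off and 3 reads in all 6 nontransgenic libraries. The fitted log2 difference was 5.30 ± 0.58 (SE; edgeR adjusted p = 3.95e-05), a value that depends on the prior count because 2 Mfn2wt libraries had no read. Olfr541 was also the only gene called between Mfn2AA and tet-off hearts (0.00732% of genes), at 5.35 ± 0.57 (SE; edgeR adjusted p = 6.89e-05). Those 2 comparisons share the Mfn2AA libraries. With the tet-off to nontransgenic difference subtracted, which rests on near-empty libraries, it was at 3.10 ± 2.01 (SE; edgeR adjusted p = 0.778).

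Neighbouring receptor genes fell below the filter on low counts, and are named here after their reads were seen. Olfr539 had 6, 6 and 6 reads in the Mfn2AA hearts, 2 reads over the 4 Mfn2wt hearts and none in the controls. Olfr45 had 5 reads in Mfn2AA, none in Mfn2wt, 2 in tet-off and none in nontransgenic hearts. Odorant receptors are a large gene family, and how reads were assigned among its members was not tested, so these low counts are uncertain. The 250 bases before the starts of Olfr541 (chr7:140704003-140704252) and Olfr45 (chr7:140690634-140690883) are shown because Olfr541 was called against both Mfn2wt and tet-off hearts. The capitals mark the longest run that both share, 36 bases, while Olfr541 and Olfr539 share at most 14 there. These stretches lie outside the counted genes and say nothing about read assignment. Both are from RefSeq, GRCm38.p6, plus strand.
Olfr541: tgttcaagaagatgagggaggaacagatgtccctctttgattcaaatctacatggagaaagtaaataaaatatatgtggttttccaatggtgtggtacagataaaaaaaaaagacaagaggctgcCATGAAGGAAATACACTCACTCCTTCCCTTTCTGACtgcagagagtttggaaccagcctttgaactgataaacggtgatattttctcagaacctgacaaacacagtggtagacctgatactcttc
Olfr45: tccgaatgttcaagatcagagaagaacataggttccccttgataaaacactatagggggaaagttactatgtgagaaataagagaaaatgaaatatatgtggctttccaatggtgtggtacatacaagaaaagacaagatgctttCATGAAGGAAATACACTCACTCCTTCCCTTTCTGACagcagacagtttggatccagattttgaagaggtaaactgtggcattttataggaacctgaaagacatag

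Zfp941, a zinc finger gene 117.9 kb beyond Olfr541, was at 2.67, 3.09 and 2.03 CPM in Mfn2AA and at 1.37, 1.33, 1.17 and 0.60 CPM in Mfn2wt hearts, without overlap and without passing the test (log2 difference 1.18 ± 0.31; edgeR adjusted p = 0.189). Among 46 genes tested within 1 Mb of Olfr541, 3 were higher and 4 lower at an unadjusted p under 0.05. Ifitm1, Ifitm2 and Ifitm3, interferon-induced membrane proteins of that window, were among the lower ones at -1.16, -0.29 and -0.46, and none passed adjustment.

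**Figure D3:**
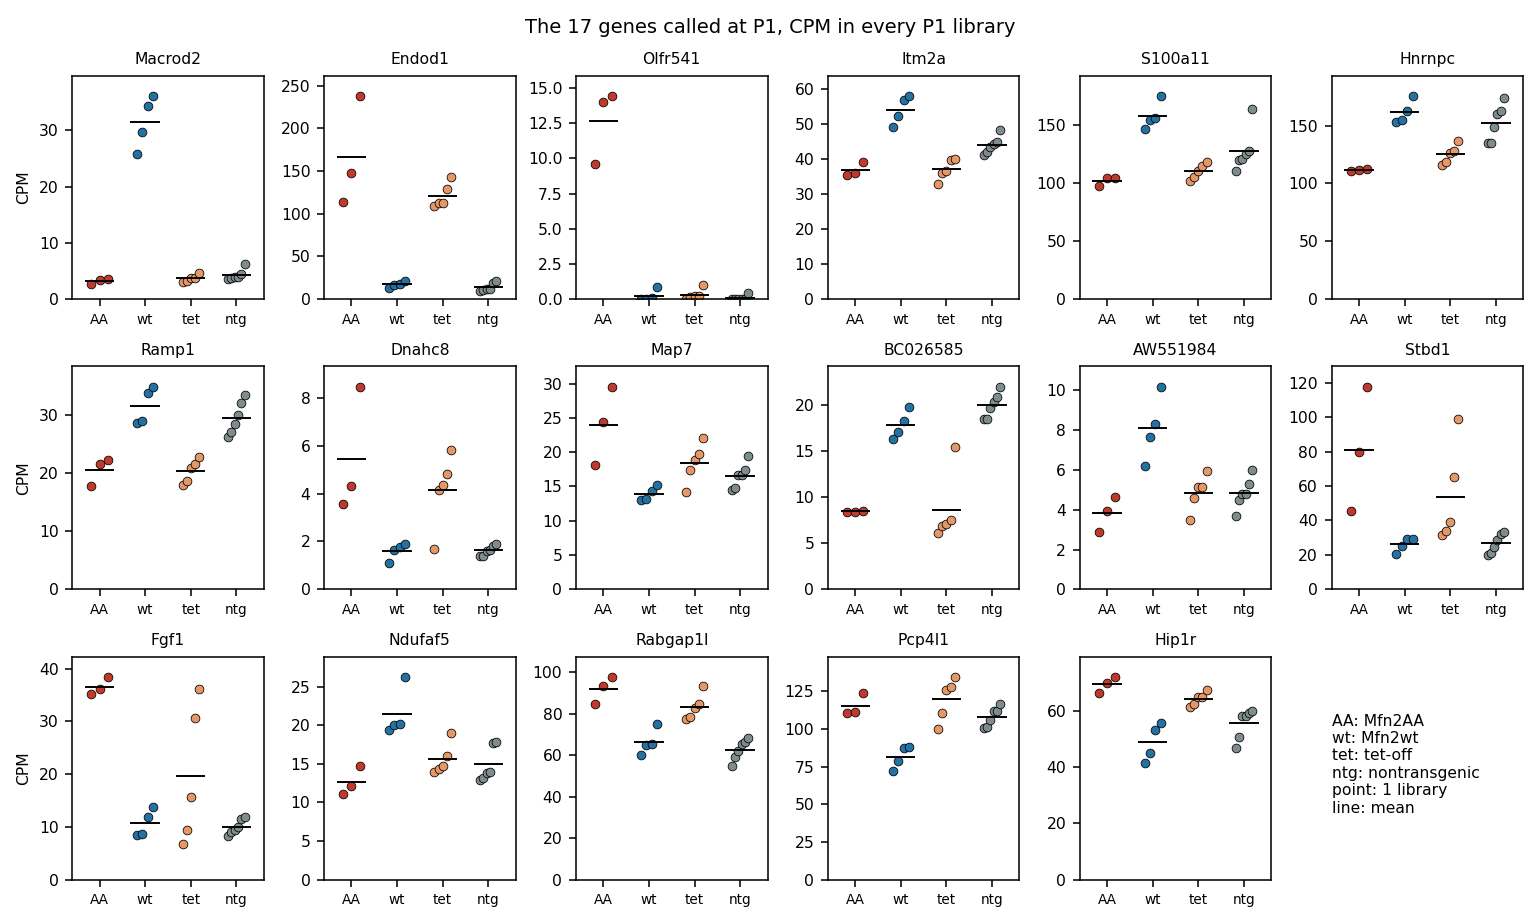
CPM of the 17 genes called at P1 in each of the 18 P1 libraries, by genotype, with the group mean as a line. Macrod2 is high only in the Mfn2wt hearts and Olfr541 only in the Mfn2AA hearts, while Endod1, Ramp1, Rabgap1l and BC026585 have Mfn2AA beside tet-off and Mfn2wt beside nontransgenic, with 1 tet-off library at 15.4 CPM as the exception for BC026585.

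Fgf1, the acidic fibroblast growth factor on chromosome 18, was at 35.2, 38.4 and 36.2 CPM in the Mfn2AA hearts and at 8.48, 8.62, 11.9 and 13.9 CPM in the Mfn2wt hearts. The 3 Mfn2AA values were close together, and the groups did not overlap. The difference was 1.79 ± 0.35 (SE; edgeR adjusted p = 0.0436). Tet-off hearts were spread from 6.66 to 36.1 CPM: the pair that shares its number with Mfn2AA_10619-1 had 30.6 and 36.1 CPM, the heart that shares its number with Mfn2AA_10586-3 and Mfn2AA_10586-7 had the lowest value, 6.66 CPM, and the other 2 had 15.7 and 9.36 CPM. Nontransgenic hearts lay at 9.99 ± 1.44 CPM (SD, n = 6). Among the fibroblast growth factors and receptors, 17 of 25 listed genes were tested, 14 lay above 0 and 3 below, and Fgf1 was the only one called; the median was 0.17. Fgf2 was higher without overlap but near the detection limit, at 0.508 to 1.03 CPM against 0.361 to 0.486 CPM.

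Stbd1, which tethers glycogen to membranes and takes part in its autophagy, was at 118, 79.6 and 45.8 CPM in Mfn2AA and at 29.01, 20.6, 29.3 and 25.4 CPM in Mfn2wt hearts. The Mfn2AA hearts differed widely from each other, and all were above Mfn2wt (log2 difference 1.64 ± 0.32; edgeR adjusted p = 0.0436). Tet-off hearts again were spread, from 31.6 to 98.9 CPM, and nontransgenic hearts lay at 26.7 ± 5.62 CPM (SD, n = 6). Stbd1 was the 1 gene called of 21 glycogen genes tested, whose median was 0.00559. Gys1, the muscle glycogen synthase, was at 0.03, and Pygl, the liver form of glycogen phosphorylase, was at -0.77 with lower values in every Mfn2AA heart (61.2, 64.9 and 62.5 against 81.1 to 135 CPM), and did not pass (edgeR adjusted p = 0.274).

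Dnahc8, an axonemal dynein heavy chain on chr17:30626936-30875264, was scarce, at 8.48, 4.30 and 3.55 CPM in Mfn2AA and 1.64, 1.89, 1.75 and 1.08 CPM in Mfn2wt hearts. It was called at 1.78 ± 0.34 (SE; edgeR adjusted p = 0.0436), and tet-off hearts held 4.17 ± 1.53 CPM (SD, n = 5) against 1.63 ± 0.218 CPM (SD, n = 6) in nontransgenic hearts. The adjoining gene Glo1, whose enzyme detoxifies methylglyoxal, was at 196, 170 and 158 CPM in Mfn2AA and 92.6, 75.1, 83.1 and 96.9 CPM in Mfn2wt hearts. That is a 2.01-fold difference (log2 1.01 ± 0.22), which missed the threshold at an edgeR adjusted p of 0.0861, while tet-off against nontransgenic hearts were 1.02 ± 0.18 apart (edgeR adjusted p = 0.00717). In 1 tet-off library, tetoff_10587-3, Glo1 was at 69.8 CPM and Dnahc8 at 1.69 CPM, against 165 to 226 CPM and 4.14 to 5.83 CPM in the other 4; the nontransgenic hearts had 72.1 to 84.1 CPM of Glo1 and 1.37 to 1.90 CPM of Dnahc8. Btbd9, next to Glo1, had a log2 difference of 0.41 ± 0.11 between Mfn2AA and Mfn2wt (edgeR adjusted p = 0.216). Of 14 genes tested within 1 Mb of Dnahc8, 4 were higher and none lower at an unadjusted p under 0.05. Over the windows of all 17 called genes, 21 of 254 neighbours were higher and 17 lower by that measure, and over all genes 5.22% and 5.28%.

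Ramp1, Rabgap1l and BC026585, all on chromosome 1, were called here and in the tet-off to nontransgenic comparison in the same direction. Ramp1 makes the calcitonin receptor-like receptor a receptor for the vasodilator CGRP. It was at 17.7, 22.3 and 21.5 CPM in Mfn2AA against 34.96, 28.6, 33.9 and 29.03 CPM in Mfn2wt hearts (log2 -0.63 ± 0.12; edgeR adjusted p = 0.0387), and at 20.4 ± 1.98 CPM in tet-off against 29.6 ± 2.85 CPM in nontransgenic hearts. Its partner Calcrl was at -0.16 and its relatives Ramp2 and Ramp3 at -0.11 and -0.41, none called. Ramp3 was lower in every Mfn2AA heart (2.13 to 2.87 against 3.13 to 3.595 CPM). Calca and Calcb, the CGRP genes, fell below the filter, with 9 and 18 reads over the 7 libraries. Adm, which encodes the related peptide adrenomedullin, was higher in all Mfn2AA hearts at 0.62 without passing (edgeR adjusted p = 0.164). BC026585, on chr1:157458582-157488733, was at 8.35, 8.42 and 8.53 CPM in Mfn2AA against 16.2 to 19.7 CPM in Mfn2wt hearts (log2 -1.08 ± 0.21; edgeR adjusted p = 0.0436). Rabgap1l, a regulator of Rab GTPases in membrane traffic, was at 84.6, 93.4 and 97.8 CPM against 59.9 to 75.2 CPM (log2 0.47 ± 0.09; edgeR adjusted p = 0.0498). Rabgap1l was no longer called in 17 of 20 alternatives, Hip1r in 17 and Pcp4l1 in 18.

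The remaining 7 called genes differed by at most 2.1-fold. Itm2a, a membrane protein gene of differentiating muscle and cartilage on the X chromosome, was at 39.3, 35.5 and 36.2 CPM in Mfn2AA and at 56.9, 58.0, 49.3 and 52.4 CPM in Mfn2wt hearts (log2 -0.55 ± 0.09; edgeR adjusted p = 0.0117). S100a11, a calcium-binding protein gene, was at 103.9, 104.4 and 97.2 CPM against 146 to 174 CPM (log2 -0.63 ± 0.11; edgeR adjusted p = 0.023). Hnrnpc, which packages nascent RNA, was at 111, 112 and 113 CPM against 153 to 175 CPM (log2 -0.53 ± 0.09; edgeR adjusted p = 0.0325). In these 3 the tet-off and nontransgenic means fell between the Mfn2AA and Mfn2wt means. AW551984, on chromosome 9, was at 4.63, 2.90 and 3.96 CPM against 6.22 to 10.2 CPM (log2 -1.07 ± 0.21; edgeR adjusted p = 0.0436), and both controls were at 4.86 and 4.85 CPM on average, so that Mfn2wt was the group apart, as for Macrod2.

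The other 3 genes were higher in Mfn2AA. Map7, which binds microtubules, was at 24.3, 29.6 and 18.2 CPM in Mfn2AA and at 12.97 to 15.2 CPM in Mfn2wt hearts (log2 0.79 ± 0.15; edgeR adjusted p = 0.0436). Hip1r, which links clathrin to actin, was at 72.0, 69.7 and 66.3 CPM against 41.4 to 55.7 CPM (log2 0.50 ± 0.10; edgeR adjusted p = 0.0498). Pcp4l1, a relative of a calmodulin-binding protein, was at 111, 124 and 111 CPM against 71.8 to 88.3 CPM, with tet-off hearts at 119.8 CPM and nontransgenic hearts at 108 CPM on average (log2 0.50 ± 0.10; edgeR adjusted p = 0.0498). With the Xist level as a term in the model 8 of the 17 genes stayed called.

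The next 10 genes by p were not called, at an adjusted p from 0.0627 to 0.0861 in edgeR. Xkr5, Brpf3, Adam22, Glo1, Nfatc2, Arhgef37 and Sesn3 were higher in Mfn2AA hearts, and Cdh16, Tmsb10 and Oxct1 were lower. Oxct1, the mitochondrial enzyme that activates ketone bodies for oxidation, was at 96.0, 120 and 124 CPM in Mfn2AA and at 151, 148, 202 and 184 CPM in Mfn2wt hearts (log2 -0.60 ± 0.13). Its control means were 135 CPM in tet-off and 120 CPM in nontransgenic hearts. Tmsb10, an actin-sequestering thymosin, was at 436.9 ± 29.7 against 656.8 ± 68 CPM, and Adam22, a catalytically inactive metalloprotease, at 25.4 ± 3.54 against 14.9 ± 1.17 CPM. Both were called between tet-off and nontransgenic hearts in the same direction (edgeR adjusted p = 0.0109 and 0.00525).

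Set beside the controls, the 17 genes fell into different patterns. Between tet-off and nontransgenic hearts, where 177 genes were called (1.3%), 15 of the 17 had the same sign as between Mfn2AA and Mfn2wt, and 5 were called: Endod1, BC026585, Dnahc8, Rabgap1l and Ramp1. Between Mfn2wt and nontransgenic hearts 20 genes were called (0.146%), and of the 17 only Macrod2 was among them, at 2.87 ± 0.14 (SE; edgeR adjusted p = 4.6e-11); this comparison shares the Mfn2wt libraries. Subtracting the tet-off to nontransgenic difference left 16 of the 17 with their sign and 1 called, and turned BC026585 to 0.13 ± 0.27 (SE; edgeR adjusted p = 0.963). That contrast draws on all 4 groups and is less precise, with an SE of 0.25 for Macrod2 in place of 0.19. The title numbers moved with genotype throughout, since Mfn2AA shared numbers only with tet-off and Mfn2wt only with a nontransgenic heart, and number and genotype cannot be told apart.

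The same lines were sampled at P21 and at 5 weeks, in other libraries of other batches, so those ages measure the 17 genes in hearts that were not used to call them. At P21, with 6 hearts in each group, 1863 genes were called between Mfn2AA and Mfn2wt (13.7%). Of the 17, 15 kept their sign and 8 were called in the same direction: Endod1, Macrod2, Olfr541, Fgf1, Stbd1, Pcp4l1, Rabgap1l and S100a11. Macrod2 was at 4.90 ± 1.14 against 34.6 ± 9.57 CPM, Endod1 at 125.6 ± 28.1 against 14.4 ± 3.67 CPM, and Olfr541 at 28.8 ± 7.17 against 0.813 ± 1.14 CPM (SD, n = 6 each). Fgf1 held a difference of 2.26 ± 0.41 (SE; edgeR adjusted p = 0.000755) with Mfn2AA hearts spread from 26.2 to 120.5 CPM. Ramp1 was called the other way, at 9.97 ± 1.14 against 3.61 ± 1.62 CPM.

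At 5 weeks, with 4 hearts in each group, 5256 genes were called (38.5%), a high background for single calls. Endod1, Macrod2, Olfr541, Stbd1 and Dnahc8 were called in the P1 direction, and S100a11, Map7, Pcp4l1, AW551984 and Itm2a in the opposite one. In all, 9 of the 17 had the P1 sign, and Ramp1, Hnrnpc and BC026585 were also on the opposite side without being called. Macrod2 was at 1.46 ± 0.28 against 9.26 ± 1.75 CPM and Endod1 at 37.2 ± 13.3 against 7.89 ± 1.46 CPM (SD, n = 4 each). S100a11, lower in Mfn2AA at P1, was at 154.2 ± 42.6 against 43.6 ± 13 CPM. The change of the difference was tested itself. From P1 to P21 it was called for 45 genes (0.308%), among them Ramp1 at 2.07 ± 0.36 (SE; edgeR adjusted p = 0.00122) and Hip1r at -0.70 ± 0.17 (SE; edgeR adjusted p = 0.0468). From P1 to 5 weeks it was called for 4500 genes (30.8%), and for 7 of the 17; Macrod2, Olfr541, Stbd1, Fgf1 and Dnahc8 were not among these.

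**Figure D4:**
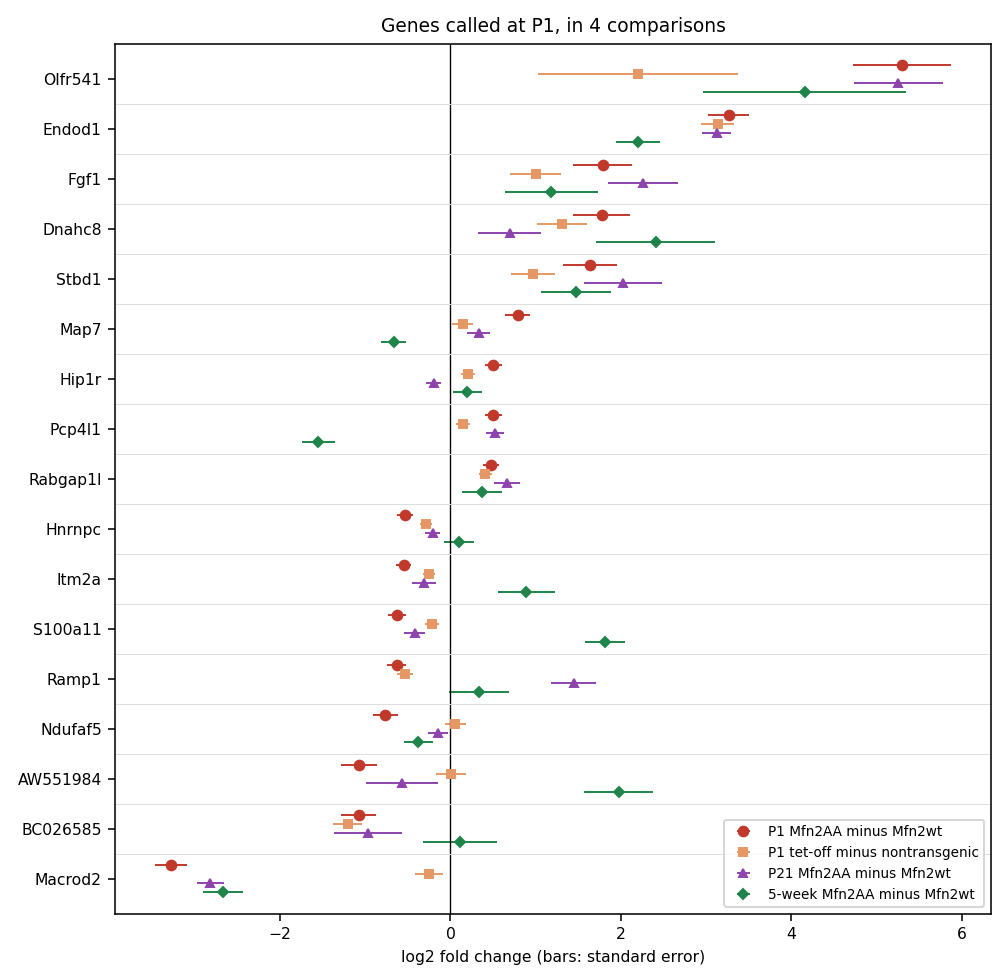
Log2 fold change with its standard error for the 17 genes called at P1, in the P1 comparison, between tet-off and nontransgenic hearts at P1, and between Mfn2AA and Mfn2wt at P21 and at 5 weeks. Macrod2 lies near -3 at all ages and near 0 between the controls, Endod1 is high in all 4 comparisons, and S100a11, AW551984, Itm2a, Map7 and Pcp4l1 lie on the opposite side of 0 at 5 weeks.

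Genes of the mitophagy pathway addressed by the mutation were near the background at P1. Of 28 listed genes of the Parkin and PINK1 pathway 26 were tested, none was called, and the median log2 fold change was 0.02. Vdac3, a channel of the outer membrane that Parkin ubiquitinates, was lower in every Mfn2AA heart at -0.43 ± 0.14, and Ambra1, a regulator of autophagy initiation, was higher at 0.21 ± 0.07; they were the only 2 with an unadjusted p under 0.05. Fusion, fission and transport genes (24 tested, median 0.01) and autophagy and lysosome genes (30 tested, median 0.02) had no called member either. The autophagy and lysosome genes summed lower in every Mfn2AA heart, at 2646 to 2721 CPM against 2767 to 2841 CPM. The controls spanned both ranges, at 2436 to 2854 CPM. Gabarap, which conjugates to the autophagosome membrane, was at -0.38 ± 0.11 (edgeR adjusted p = 0.214).

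Most nuclear subunit genes of the respiratory chain lay below 0, and none passed the test. Complex I subunits lay below 0 in 29 of 35 genes tested (median -0.13), complexes II to IV in 22 of 26 (median -0.15) and ATP synthase in 14 of 17 (median -0.20), against 6871 of 13653 over all genes. For complexes II to IV and ATP synthase the groups overlapped for every gene. The summed levels overlapped too: complex I subunits summed to 8918, 10610 and 10830 CPM in Mfn2AA and to 10970, 8641, 11430 and 13070 CPM in Mfn2wt hearts, so that the lowest and the highest library were both Mfn2wt. ATP synthase summed to 14380 to 16690 CPM against 13620 to 19570 CPM. Ndufb3 was at 94.1, 103 and 106 CPM in Mfn2AA and at 142, 119, 149 and 193 CPM in Mfn2wt hearts (-0.58 ± 0.19; edgeR adjusted p = 0.29). Among complex I assembly factors Ndufaf5 was the 1 called gene of 14 tested, and 11 lay below 0 (median -0.20). The 13 genes encoded in mitochondrial DNA went the other way with a median of 0.17, 10 of them above 0 and all with overlapping groups. Esrrb, a nuclear receptor that drives mitochondrial genes, was lower in every Mfn2AA heart, at 16.6 to 18.5 CPM against 25.9 to 31.6 CPM (-0.69 ± 0.18), and did not pass (edgeR adjusted p = 0.173). Its control means were 18.9 CPM in tet-off and 19.5 CPM in nontransgenic hearts, so that Mfn2wt was the group apart.

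Genes of fuel use were mostly near 0. The medians were -0.05 for 31 fatty acid genes, -0.04 for 28 genes of glycolysis and lactate, -0.04 for 19 genes of the tricarboxylic acid cycle and -0.14 for 14 genes of ketone and amino acid oxidation, and none was called. Slc2a1, a glucose transporter abundant in fetal heart, was at 0.50 ± 0.14 and Acot2, a mitochondrial acyl-CoA thioesterase, at -0.45 ± 0.14, both without overlap (edgeR adjusted p = 0.225 and 0.272). Beside Oxct1, Bckdhb of branched-chain amino acid breakdown was at -0.56 ± 0.16 and Mut of propionate use at -0.44 ± 0.12. With Oxct1 these were 3 of the 14 ketone and amino acid genes that were lower in every Mfn2AA heart. Over all genes that share was 5.6%, and the list got no test.

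**Figure D5:**
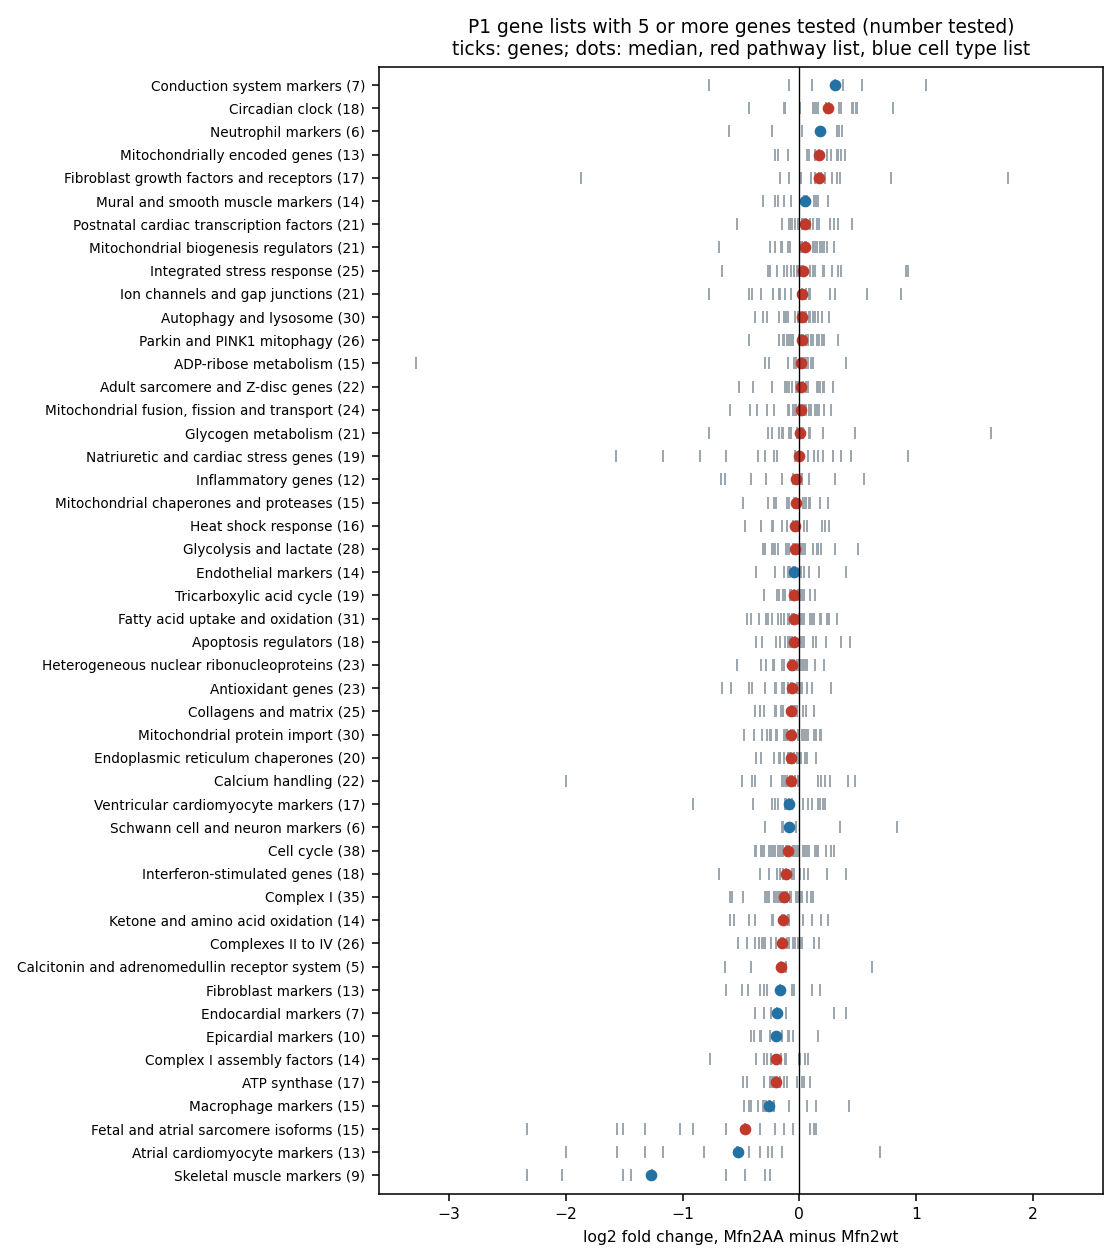
Log2 fold change, Mfn2AA minus Mfn2wt, of the genes in each list with 5 or more genes tested (ticks) and the median of the list (dot; red for pathways, blue for cell types). Most medians lie within 0.2 of 0; skeletal muscle, atrial and fetal sarcomere lists are the lowest at -1.27, -0.53 and -0.47, and conduction and circadian clock lists the highest at 0.30 and 0.24.

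Circadian clock genes showed the highest median of the pathway lists, 0.24 over 18 genes tested, with none called. Their summed level was 634.5 to 687.4 CPM in Mfn2AA and 521.7 to 571.1 CPM in Mfn2wt hearts, without overlap. In the controls it was 562.5 to 733.4 CPM. The clock is a loop in which the factors CLOCK and BMAL1 switch on Per and Cry genes, whose proteins then repress them. Per2 was at 42.8, 51.8 and 46.0 CPM in Mfn2AA and at 27.9, 18.8, 29.8 and 31.4 CPM in Mfn2wt hearts, a log2 difference of 0.80 ± 0.21 (edgeR adjusted p = 0.178). Per3, Cry1 and Cry2 also lay wholly above their Mfn2wt values, at 0.46, 0.49 and 0.26, and Nr1d1, a repressor in the loop, wholly below at -0.43. In all, 8 of 18 had an unadjusted p under 0.05 in the higher and 1 in the lower direction, against 5.22% and 5.28% of all genes. Without overlap, 5 were higher and 1 lower, against 6.44% and 5.6% of all genes. The list was chosen with earlier results of these data known and got no test. Clock, the gene of the activator, was at 0.01 and Arntl, which encodes BMAL1, at 0.11, with overlapping groups. The hour at which hearts were taken is not given in the sources used here, and its part in these values was not tested. At P21 Per2 was called at 0.83 ± 0.11 (SE; edgeR adjusted p = 2.99e-05) and Tef, an output factor of the clock, at 0.40 ± 0.10 (SE; edgeR adjusted p = 0.0084), whereas at 5 weeks Tef was called the other way at -0.81 ± 0.12 (SE; edgeR adjusted p = 8.08e-05).

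The activators of the clock bind the E-box, letters CACGTG, which reads the same on both strands. It occurred in the 250 bases before a start of 5 of the 16 clock genes with a RefSeq window. These were Per1, Cry1, Tef, Bhlhe41 and Ciart. A gene was counted if any of its windows held the letters. Of all 32851 windows, taken singly, 6.02% held them, so these shares differ in measure. No window was used for Per2. The 30 bases around the match are shown for the 3 genes with a match and an unadjusted p under 0.05, E-box in capitals, in the direction of the gene (GRCm38.p6). For each gene the first window that held the E-box was taken, so the match in the printed stretch was fixed by that choice. Cry1 is on the minus strand at chr10:85185097-85185126, Per1 on the plus strand at chr11:69098771-69098800 and Tef on the plus strand at chr15:81802534-81802563.
Cry1: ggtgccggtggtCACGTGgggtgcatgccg
Per1: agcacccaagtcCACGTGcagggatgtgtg
Tef: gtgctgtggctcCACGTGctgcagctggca

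Fetal and atrial sarcomere isoforms had a median of -0.47 over 15 genes, with none called. Their summed level was 10840 to 14190 CPM in Mfn2AA and 17140 to 22970 CPM in Mfn2wt hearts, without overlap. In the controls it was 10300 to 20750 CPM. Myh7, the slow myosin heavy chain of fetal ventricle, was at 5232, 4770 and 7214 CPM in Mfn2AA and at 12450, 9200, 10200 and 11230 CPM in Mfn2wt hearts, without overlap (-0.91 ± 0.27; edgeR adjusted p = 0.254). The controls spanned both groups, at 4115 to 12070 CPM in tet-off and 6964 to 12320 CPM in nontransgenic hearts. Myl7, the atrial light chain and a member of the atrial list, was at 1911 and 2846 CPM in Mfn2wt_10546-1 and Mfn2wt_10546-3, 716 and 315 CPM in Mfn2wt_10546-6 and Mfn2wt_10546-9, and 247 to 877 CPM in Mfn2AA hearts. Of 13 atrial markers 12 lay below 0 (median -0.53) and of 9 skeletal muscle markers all did (median -1.27), every one with overlapping groups. Among alternatives chosen after seeing the data, with the mean atrial level as a term all 17 genes stayed called and 36 were called in all, while 3 were called without both atrial-rich Mfn2wt hearts.

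Other cell types gave no called marker. Medians were -0.04 for 14 endothelial, -0.16 for 13 fibroblast, 0.05 for 14 mural, -0.26 for 15 macrophage and 0.30 for 7 conduction system genes. Of the 13 fibroblast genes 11 lay below 0. At an unadjusted p under 0.05, 4 of them were lower and 0 higher, against 5.28% and 5.22% of all genes. Of the 15 macrophage genes 12 lay below 0, and of 10 epicardial genes 9 did. In the conduction list Cacna1g, a T-type calcium channel, was at 0.53 ± 0.13 and Cntn2, an adhesion molecule of Purkinje fibres, at 1.09 ± 0.32, both higher in every Mfn2AA heart and not called (edgeR adjusted p = 0.142 and 0.243). Of the 7 conduction genes 5 lay above 0 and 2 below, the lowest at -0.78. At an unadjusted p under 0.05, 3 of the 7 were higher and 1 lower, against 5.22% and 5.28% of all genes. Their summed levels overlapped, at 290.5 to 396.1 CPM in Mfn2AA and 240.5 to 381.3 CPM in Mfn2wt hearts. Thymus and lung were barely present, with 33 reads of Rag1 and 125 of Sftpc over all 7 libraries. Of 11 adipocyte markers 4 were tested. These summed to 648.7 to 872.9 CPM in Mfn2AA and 605.2 to 1019 CPM in Mfn2wt hearts. Fabp4 alone was at 525.3 and 624.9 CPM on average, while Adipoq had 2, Plin1 5 and Cidec 0 reads over all 7 libraries. The globin genes Hbb-b1 and Hba-a1 were listed at 0 reads, while Alas2, the haem synthesis enzyme of red cell precursors, lay at 24.98 to 28.2 CPM in Mfn2AA and 17.8 to 30.5 CPM in Mfn2wt hearts.

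Among the other lists, heterogeneous nuclear ribonucleoproteins had 4 of 23 genes lower and 1 higher at an unadjusted p under 0.05. Over all genes 5.28% were lower and 5.22% higher by that measure. Hnrnpc was the 1 called gene (median -0.06). Hnrnpa2b1 was at -0.29 and Hnrnpk at -0.22, both lower in every Mfn2AA heart. In the ADP-ribose list Macrod2 was the 1 called gene of 15, and its paralog Macrod1, a mitochondrial macrodomain enzyme, was on the opposite side, at 87.4, 113.7 and 103.7 CPM against 56.3 to 84.5 CPM (0.40 ± 0.12; edgeR adjusted p = 0.251). Macrod1 was at 97.8 CPM in tet-off and 98.0 CPM in nontransgenic hearts on average, nearer to Mfn2AA than to Mfn2wt. Integrated stress response genes (25 tested, median 0.03), endoplasmic reticulum chaperones (20, -0.08), antioxidant genes (23, -0.07), cell cycle genes (38, -0.10), interferon-stimulated genes (18, -0.12) and collagens and matrix (25, -0.07) had no called member. Some list sums did not overlap between the groups. Antioxidant genes summed to 2975 to 3181 CPM in Mfn2AA and 3423 to 3634 CPM in Mfn2wt hearts. Heat shock genes summed to 4593 to 4902 against 4951 to 5608 CPM, and heterogeneous nuclear ribonucleoproteins to 4128 to 4144 against 4323 to 4493 CPM. The controls spanned both ranges for each of these, and sums were not tested. Trib3, a pseudokinase of the stress response, was at 0.91 ± 0.28, higher in every Mfn2AA heart, and did not pass (edgeR adjusted p = 0.257).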

How the data were processed

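Per the submitters' processing notes, the authors used TopHat2 2.0.10, Bowtie2, HTSeq and Cufflinks 2.1 with the mm10 build; the role and settings of each tool are not given in the sources used here. The authors deposited whole-number counts per gene (23429 rows, 63 libraries), FPKM and an annotation with gene positions. From the counts, edgeR 4.0.16 (R 4.3.3) was run on the 18 P1 libraries of 4 genotypes: TMM scaling, filterByExpr, quasi-likelihood F test with 14 residual degrees of freedom, Benjamini-Hochberg adjustment over 13653 genes, called at adjusted p under 0.05; the SE is derived from F. CPM values use the TMM library sizes. A second row of 1 repeated symbol was left out. The libraries do not keep strand, so reads of overlapping genes cannot be told apart. FPKM entered log2 with a pseudocount of 1, for the transgene and in limma 3.58.1; DESeq2 1.42.0 was a further alternative. The scripts were tested on simulated data. Named were the transgene, Mfn2, Park2 and Pink1, all called genes, the next 10, up to 3 genes of each of 55 lists by p, and genes starting within 1 Mb of a called gene at unadjusted p under 0.05; others were chosen after their values were seen. The comparison and lists were chosen with earlier results of these data known, and lists got no test. Promoter sequences are from RefSeq; 13 of the 17 called genes had one.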

Additional observations from a re-analysis of the deposited data

Results flagged for a closer look

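Single libraries that stood far from the rest of their group were looked for in 105 groups of values, and 12 were found; chance alone gives about 1 in 20 groups (in library names, tetoff is the tet-off line and ntg nontransgenic). Olfr541 was highest in Mfn2wt_10546-1 (0.890 CPM against at most 0.0947), in tetoff_10587-1 (1.03 CPM against at most 0.212) and in ntg_10582-5 (0.412 CPM against 0). The same 3 libraries had the highest transgene FPKM of their groups, 494, 155 and 97.6, and the last pair also stood apart for the transgene, against 7.39 to 39.8 and 1.79 to 29.1 FPKM in the others. The Olfr541 values rest on few reads: 13 in Mfn2wt_10546-1, 13 over all tet-off and 3 over all nontransgenic libraries. A link to the transgene level was not tested. Macrod2 and S100a11 stood apart in ntg_10546-4, at 6.21 CPM (others 3.62 to 4.40) and 163.5 CPM (others 109.9 to 127.3); it is the nontransgenic heart that shares its title number with the Mfn2wt hearts. BC026585 was at 15.4 CPM in tetoff_10619-3 against 6.09 to 7.49 CPM. Ndufaf5 was at 26.3 CPM in Mfn2wt_10546-9 against 19.3 to 20.2 CPM. Of the marker sums, mural genes were at 6449 CPM in Mfn2wt_10546-1 (others 4945 to 5049), erythroid genes at 62.8 CPM in tetoff_10587-1 (others 34.7 to 38.6) and Schwann cell and neuron genes at 12.1 CPM in tetoff_10619-2 (others 16.4 to 17.8).

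The Mfn2AA to Mfn2wt difference changed between ages for 9 gene and age pairs by an interaction test (edgeR). These were 2 of the 17 called genes from P1 to P21 and 7 of the 17 from P1 to 5 weeks. Over all genes such a change was called for 0.308% and 30.8%, so at 5 weeks it was common. From P1 to P21 it moved by 2.07 for Ramp1 and by -0.70 for Hip1r. From P1 to 5 weeks it moved by -1.11 for Endod1, 1.41 for Itm2a, 2.41 for S100a11, 0.60 for Hnrnpc, -1.47 for Map7, 3.01 for AW551984 and -2.08 for Pcp4l1. For the Mfn2AA and Mfn2wt libraries, age and library batch are the same split and cannot be told apart.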

How the results depend on the processing

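The count of 17 called genes was 14 with RLE scaling, 15 without a filter, 14 without Rn45s, 5 with a mean of at least 10 CPM, 63 with DESeq2, 6 and 4 with limma on log2(FPKM + 1) and log2(FPKM + 0.1), 7 with only the 7 libraries, 7 without the control tetoff_10587-1, and 1 with the control-line difference subtracted. Leaving out 1 library gave 3 to 14. Settings chosen after seeing the data gave 36 (atrial level as a term), 8 (Xist as a term) and 3 (both atrial-rich Mfn2wt hearts left out). Higher genes made up 52.9% of the calls, 42.9% with RLE scaling and 20% with at least 10 CPM. BC026585 turned to 0.13 with the control-line difference subtracted; the cause was not tested. Of 1018 list medians, 955 moved by less than the replicate spread and 63 by more. The transgene difference was 2.54 to 2.86 without 1 library, where the smaller design cannot reach p under 0.05. The 8 and 5 genes called alike at P21 and at 5 weeks were 8 and 4 with DESeq2. No paired analysis was possible because Mfn2AA and Mfn2wt hearts share no title number. Depth limits genes of a few reads, such as Dnahc8, with 9 to 24 reads in Mfn2wt hearts.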
